A study of Mus musculus with 6 samples.

Results

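The 10 genes described here are Prom1, Cd44, Cd24a, Epcam, Alcam, Lrig1, Dclk1, Abcg2, Bmi1 and Nes, a set of surface and progenitor markers used to find stem-like cells in pancreatic and other tumours. They were taken by name, as 10 of the 18193 genes that the array platform annotation gave to the probe sets of a mouse expression array. Together they had 33 of the 45037 probe sets tested, each annotated to that gene alone, and where a gene had several, the one with the highest mean over the 6 arrays was taken. The arrays held total RNA of pancreatic tumour cells from C57BL/6 mice at 11 weeks of age, with 3 arrays per genotype. All 6 samples carried the tumour alleles written in the labels as KeasG12D/+, p53f/f and ptf1a-Cre, in which Cre is driven from the locus of the pancreatic transcription factor Ptf1a. The wild-type group (wt) had no Msi1 mutation named, and the knockout group (KO) was Msi1 -/-. The product of Msi1, Musashi 1, binds RNA and is found in progenitor cells, and the comparison asked which transcripts differ in its absence. The labels give each sample a mouse number without describing the animals further. The p-values given here thus rest on the spread among samples, part of which may be technical.

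Cancer stem cell markers are mostly proteins that allow living cells to be sorted by antibody. Prominin 1 (CD133), CD44, CD24 and EpCAM are glycoproteins of the cell surface by which pancreatic tumour cells with high tumour-forming capacity have been enriched, and ALCAM (CD166) is an adhesion molecule used in the same way in the colon. LRIG1 restrains receptor tyrosine kinases and marks slowly cycling epithelial stem cells, DCLK1 is a microtubule-associated kinase of tuft cells, and ABCG2 is an efflux pump behind the dye-excluding side population. BMI1 is a Polycomb protein that sustains self-renewal, and nestin is an intermediate filament protein of neural progenitors, stellate cells and young vessels.

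Values are GCRMA intensities on a linear scale, and differences are on the scale log2(intensity + 1). The added 1 understates the change of dim transcripts only slightly. With 16 added instead, the log2 difference of Abcg2 was -0.1058 rather than -0.1101. Array background was the 95th percentile of 87 olfactory, vomeronasal and taste receptor probe sets and lay between 160.39 and 184.39. Msi1 itself gave no check of the labels: its brightest probe set read 143.6, 150.4 and 257.0 in wt replicates 1 to 3 and 140.8, 168.5 and 127.4 in the KO replicates, and its position relative to the deletion is not known here. Wt replicate 3 stood apart in sex-linked transcripts, with an Xist intensity of 6226.4 against 131.3 to 387.1 in the other 5 arrays. The Y-linked gene Eif2s3y read 88.2 there, below background, and 716.2 to 943.6 in the other 5. This is the pattern of a female sample among samples with Y-linked signal, so sex was not balanced between the genotypes. Without wt replicate 3, 0 of the 10 markers passed the threshold and their median log2 difference was -0.11. KO replicates 1 and 2 were the least alike of the 15 array pairs, with a Pearson correlation across probe sets of 0.9753 against 0.9787 to 0.9932 for the other pairs. The labelled tissue had its defining markers: Krt19, a keratin of pancreatic ducts, read between 6173.6 and 9506.3, and all 12 measured markers of ductal and tumour epithelium were above background on the 6 arrays.

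All 10 marker genes gave signals above array background in all 6 tumour samples, and none of them differed between the genotypes beyond the spread between arrays. With limma, 0 of the 10 had an adjusted p under 0.05, where 0% of all genes did, and 0 had an unadjusted p under 0.05, where 3.46% of all genes did. Of their 33 probe sets likewise 0 had an unadjusted p under 0.05, beside 3.01% of all probe sets. The adjusted p was 0.9997 for each of the 10 (limma, Benjamini-Hochberg). The intensities of the 2 genotypes overlapped for every one of the 10 genes and for all 33 of their probe sets, where groups without overlap made up 8.28% of genes and 7.79% of probe sets. Means were lower in KO for 7 genes and higher for 3, where 50.3% of all genes were higher, and the log2 differences ran from -0.20 for Epcam to 0.13 for Lrig1. Their median was -0.12, beside 0.0006 over all genes. It was -0.05 with the probe sets of each gene averaged, -0.07 with array weights, -0.05 without KO replicate 1 and -0.07 without wt replicate 1. None of the 10 reached an absolute log2 difference of 0.2, which 11.6% of all genes did. The 95% intervals covered no change of 2-fold for any of the 10, and their outermost bounds, both of Prom1, were KO levels of 0.635 and 1.63 times wt.

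**Figure D1:**
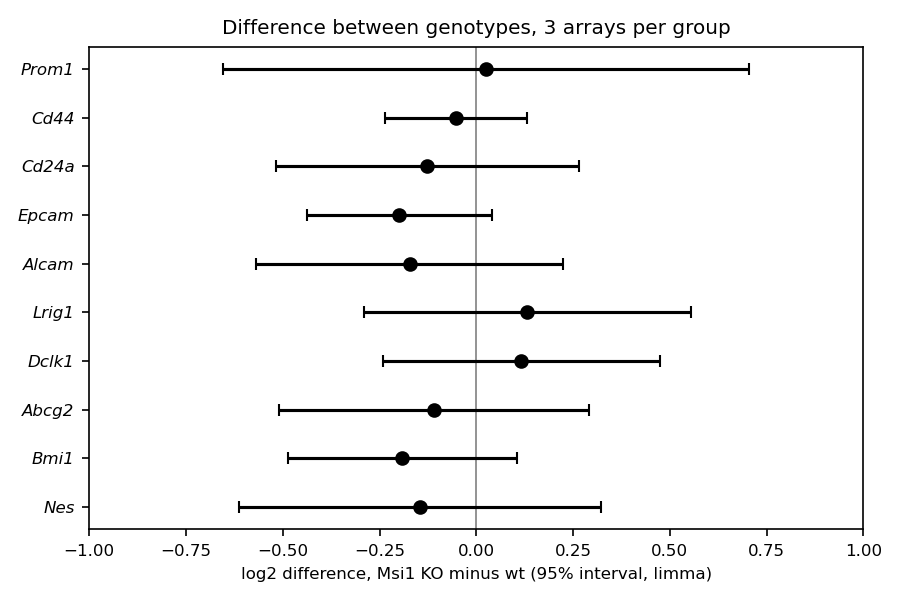
Log2 difference of each marker gene, Msi1 KO minus wt, on the horizontal axis, with genes on the vertical axis. Points are limma estimates from 3 arrays per genotype and bars their 95% intervals. Every interval holds 0, and the interval of Prom1 is the widest of the 10, from -0.66 to 0.70.

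Among the surface glycoproteins, Prom1 varied most from array to array. Prom1 encodes prominin 1, a protein of membrane protrusions that is found on the apical face of pancreatic duct cells. Its intensity was 8630.3, 7385.2 and 7111.8 in wt replicates 1 to 3 and 4773.2, 11681.4 and 8553.9 in KO replicates 1 to 3. The KO arrays thus held both the lowest and the highest value, 2.45-fold apart, and the wt arrays lay between them. The log2 difference was 0.02 ± 0.29 (SE, limma; exact two-sided permutation p = 1.0), with a log2 SD of 0.66 in KO and 0.15 in wt (n = 3 each). It was 0.38 without KO replicate 1 and -0.27 without KO replicate 2, so that its direction rested on which array was present, and it was -0.04 without KO replicate 3, -0.0039 without wt replicate 2 and -0.03 without wt replicate 3.

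Cd24a, which encodes a small heavily glycosylated protein anchored in the membrane by lipid, had the same highest and lowest arrays. Its intensity was 8646.6, 7528.9 and 8040.6 in wt and 5971.3, 9687.8 and 6955.5 in KO. KO replicate 2 was above and the other KO arrays were below all wt arrays. On the log2 scale the genotypes differed by -0.13 ± 0.17 (SE; exact permutation p = 0.6), and it was -0.32 without KO replicate 2 and 0.03 without KO replicate 1. The other Cd24a probe sets, 1416034_at and 1437502_x_at, also read highest in KO replicate 2, at 5628.8 and 3152.7, and lowest in KO replicate 1, at 2930.2 and 2003.8.

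Cd44, the receptor for the matrix sugar hyaluronan, was the steadiest of the 10. Its intensity was 6426.5, 6402.4 and 6952.2 in wt and 6818.8, 6190.8 and 6083.8 in KO, a span of 1.14-fold over the 6 arrays. The groups overlapped through KO replicate 1. KO minus wt on the log2 scale was -0.05 ± 0.08 (SE; exact permutation p = 0.5), and its 95% interval allowed KO levels between 0.850 and 1.10 times wt. Of the other Cd44 probe sets, 1423760_at and 1452483_a_at differed by -0.06 and -0.08, while 1443265_at, at 0.05, was at background on all arrays.

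Epcam, an adhesion protein of nearly all simple epithelia, had the smallest unadjusted p of the 10, at 0.0905 (limma). Its intensity was 8965.7, 7672.5 and 8195.0 in wt and 6614.0, 6897.3 and 8175.1 in KO. KO replicates 1 and 2 lay below all wt arrays, and KO replicate 3 was within their range. The log2 difference was -0.20 ± 0.10 (SE; exact permutation p = 0.2, where 3 against 3 arrays allow no less than 0.1). It stayed negative with each array left out, from -0.29 to -0.14, but the other Epcam probe set, 1447899_x_at, differed by -0.02 ± 0.11. That probe set was dimmer, with mean intensities of 1113.2 in wt and 1097.8 in KO.

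Alcam, whose product binds itself and CD6, a surface protein of T cells, was low in 1 array at its chosen probe set. Its intensity was 1794.5, 1839.9 and 1569.9 in wt and 1203.4, 1839.4 and 1635.6 in KO. KO replicate 1 was the lowest of the 6 arrays, and KO replicates 2 and 3 were within the wt range. Genotypes differed on the log2 scale by -0.17 ± 0.17 (SE; exact permutation p = 0.6), and it was 0.0033 without KO replicate 1. Of the other 4 Alcam probe sets, 1426300_at pointed the opposite way, at 0.07. KO replicate 1 was also the lowest array at 1437467_at, with 984.4. At 1426300_at and 1426301_at it read 1076.8 and 1108.3, and wt arrays were lowest.

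**Figure D2:**
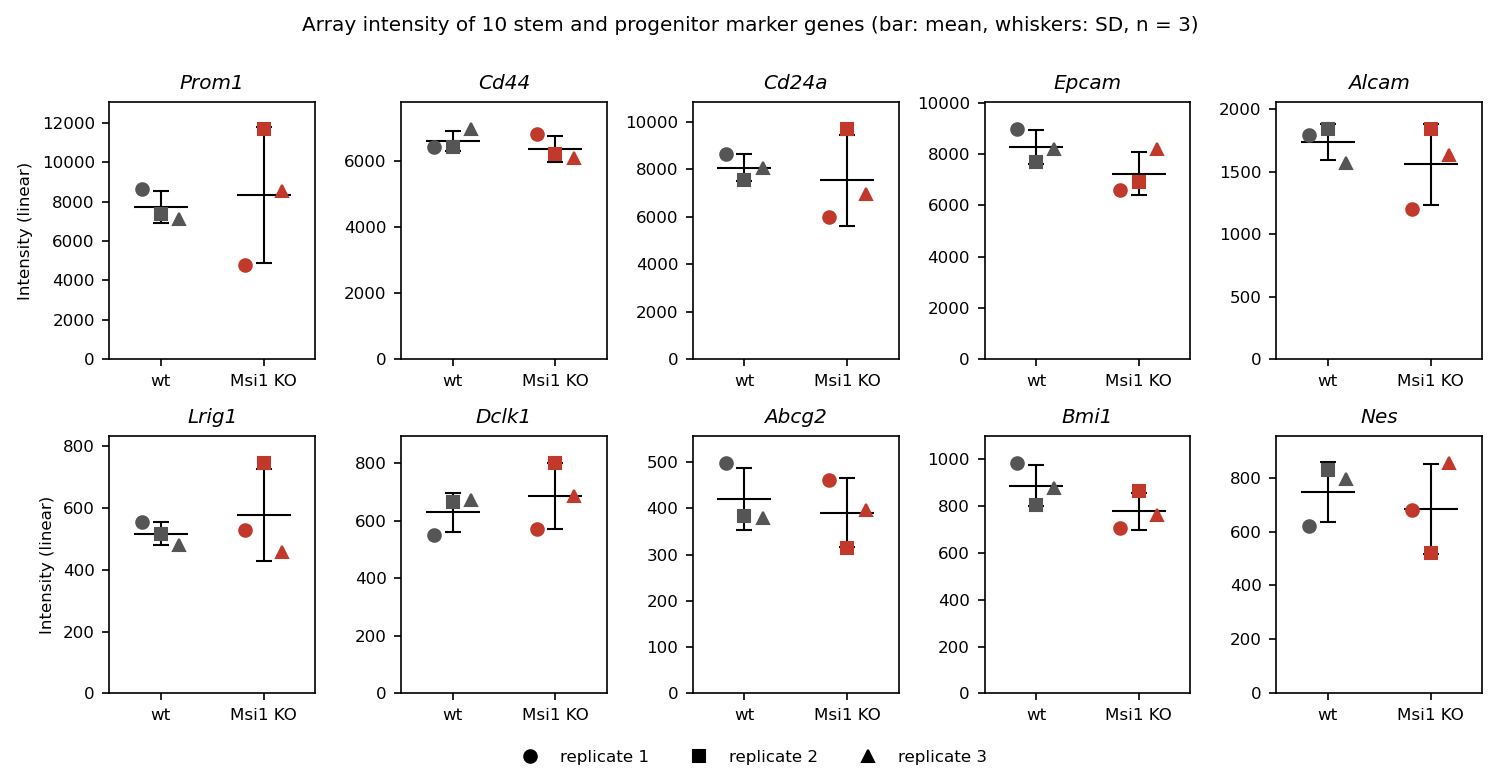
Intensity on a linear scale for each of the 10 marker genes, with wt in grey and Msi1 KO in red and a marker shape for each replicate number. Horizontal bars are means and whiskers SD over 3 arrays. The genotypes overlap in every panel, and KO replicate 2 (square) is the highest array for Prom1, Cd24a, Lrig1 and Dclk1.

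Lrig1 encodes a transmembrane protein that lowers the abundance of ErbB receptors. Its intensity was 554.3, 515.2 and 479.5 in wt and 527.5, 744.4 and 458.7 in KO, and KO replicate 2 stood above the other 5 arrays, which lay between 458.7 and 554.3. The log2 difference was 0.13 ± 0.18 (SE; exact permutation p = 0.8), and it was -0.07 without KO replicate 2. The suffix of its probe set, 1434210_s_at, marks probes that can match transcripts of other genes, but 1449893_a_at gave a similar picture, with 739.3 in KO replicate 2 and 405.0 to 508.7 in the other arrays.

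Dclk1, a kinase with doublecortin domains, was covered by 9 probe sets. At the chosen one its intensity was 549.0, 664.0 and 672.0 in wt and 569.6, 798.2 and 686.6 in KO. KO replicate 2 was highest and wt replicate 1 lowest. On the log2 scale KO minus wt was 0.12 ± 0.15 (SE; exact permutation p = 0.4), and it was -0.0008 without KO replicate 2, 0.24 without KO replicate 1 and 0.02 without wt replicate 1. All 9 probe sets had a higher mean in KO, from 0.01 to 0.19 on the log2 scale, and 8 of the 9 read highest in KO replicate 2, among them all 6 that were above background on every array. Probe sets of a gene measure the same RNA samples and are not replicates.

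Prom1, Cd24a, Lrig1 and Dclk1 thus shared their highest array. The RefSeq promoter table (GRCm38.p6) held 9 of the 10 genes, and the 250 bases before the most upstream listed start are shown for the 3 of these 4 that it held, 5′ to 3′ on the gene's strand. Capitals mark matches on either strand to the motifs searched, where the TATA box was searched as TATAAA, the CCAAT box by its own letters, the GC box as GGGCGG, and the E-box as CACGTG.
Prom1, chr5:44101737-44101986, minus strand: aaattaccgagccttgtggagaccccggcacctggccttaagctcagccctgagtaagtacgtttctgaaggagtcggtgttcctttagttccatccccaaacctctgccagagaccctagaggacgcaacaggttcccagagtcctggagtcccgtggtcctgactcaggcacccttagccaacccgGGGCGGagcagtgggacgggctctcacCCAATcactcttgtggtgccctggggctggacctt
Lrig1, chr6:94700146-94700395, minus strand: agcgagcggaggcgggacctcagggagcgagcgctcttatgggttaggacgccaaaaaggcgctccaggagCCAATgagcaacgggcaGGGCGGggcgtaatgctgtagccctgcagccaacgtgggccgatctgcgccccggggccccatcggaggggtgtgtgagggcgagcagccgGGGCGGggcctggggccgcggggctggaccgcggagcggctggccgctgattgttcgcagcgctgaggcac
Dclk1, chr3:55242114-55242363, plus strand: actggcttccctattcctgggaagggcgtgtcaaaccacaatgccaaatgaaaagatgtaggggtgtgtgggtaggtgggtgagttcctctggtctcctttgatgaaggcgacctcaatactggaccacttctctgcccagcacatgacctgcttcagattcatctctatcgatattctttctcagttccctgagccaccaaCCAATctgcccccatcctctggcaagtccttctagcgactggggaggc
All 3 held 1 CCAAT match, a motif found in 33.8% of the 32851 promoter windows of this length. The GC box matched at 1 position in Prom1, at 2 in Lrig1 and at none in Dclk1, against 32.7% of windows with a match. Neither the TATA box nor the E-box matched in any of the 3 windows, and these were present in 12.4% and 6.0% of windows. The windows differed in base composition, with 59.2%, 71.6% and 52.4% G and C for Prom1, Lrig1 and Dclk1 beside a median of 52.4% over all windows.

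The efflux pump gene Abcg2 was dimmest in the array where Prom1 was brightest. Its intensity was 496.8, 382.6 and 379.7 in wt and 461.3, 313.3 and 397.0 in KO, so that KO replicate 2 was the lowest array. The log2 difference was -0.11 ± 0.17 (SE; exact permutation p = 0.6), and it turned to 0.04 without KO replicate 2 and to 0.02 without wt replicate 1. A single probe set measured this gene.

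Bmi1, a subunit of Polycomb repressive complex 1 that holds the Cdkn2a locus silent, read 980.7, 804.0 and 874.1 in wt and 705.2, 861.1 and 762.8 in KO. KO replicates 1 and 3 were below all wt arrays and KO replicate 2 was among them. The genotypes differed on the log2 scale by -0.19 ± 0.13 (SE; exact permutation p = 0.2), and it kept its sign with each array left out, from -0.27 to -0.12. The other Bmi1 probe set, 1448733_at, differed by 0.0077 ± 0.14 (SE), with 718.7 in KO replicate 2 and 507.3 to 608.1 in the other arrays.

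Nes, which encodes nestin, read 620.6, 827.2 and 792.8 in wt and 678.8, 520.4 and 852.4 in KO. KO replicate 2 was lowest and KO replicate 3 highest. The log2 difference was -0.14 ± 0.20 (SE; exact permutation p = 0.7), and it was 0.04 without KO replicate 2. A further Nes probe set above background, 1418289_at, differed by 0.0017.

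At their chosen probe sets, the markers varied more among the KO arrays than among the wt arrays. The log2 SD was larger in KO than in wt for 10 of 10 genes, a comparison made after the values were seen, where 64.5% of the 11142 genes above background on all arrays had the larger SD in KO. For Cd44 and Bmi1 the SDs were close, at 0.09 and 0.07 for Cd44 and 0.14 in both groups for Bmi1. Of the other probe sets above background, Cd44 1452483_a_at and Alcam 1426301_at went the opposite way. Their SDs were 0.13 and 0.05 in KO and 0.20 and 0.11 in wt. For Prom1, Cd24a and Lrig1 the KO SD was 0.66, 0.36 and 0.36 and the wt SD 0.15, 0.10 and 0.10, beside medians of 0.15 in KO and 0.11 in wt over genes above background. KO replicate 2 was the highest array for 4 of the 10 markers and for 22% of genes above background, and KO replicate 1 was the lowest for 5 of 10 and for 33.2% of these genes. The 5 that were lowest in KO replicate 1 at their chosen probe sets were Prom1, Cd24a, Epcam, Alcam and Bmi1. The other Epcam probe set, 1447899_x_at, read highest in that array, at 1170.9, and Alcam 1426300_at and 1426301_at read lowest in wt arrays.

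**Figure D3:**
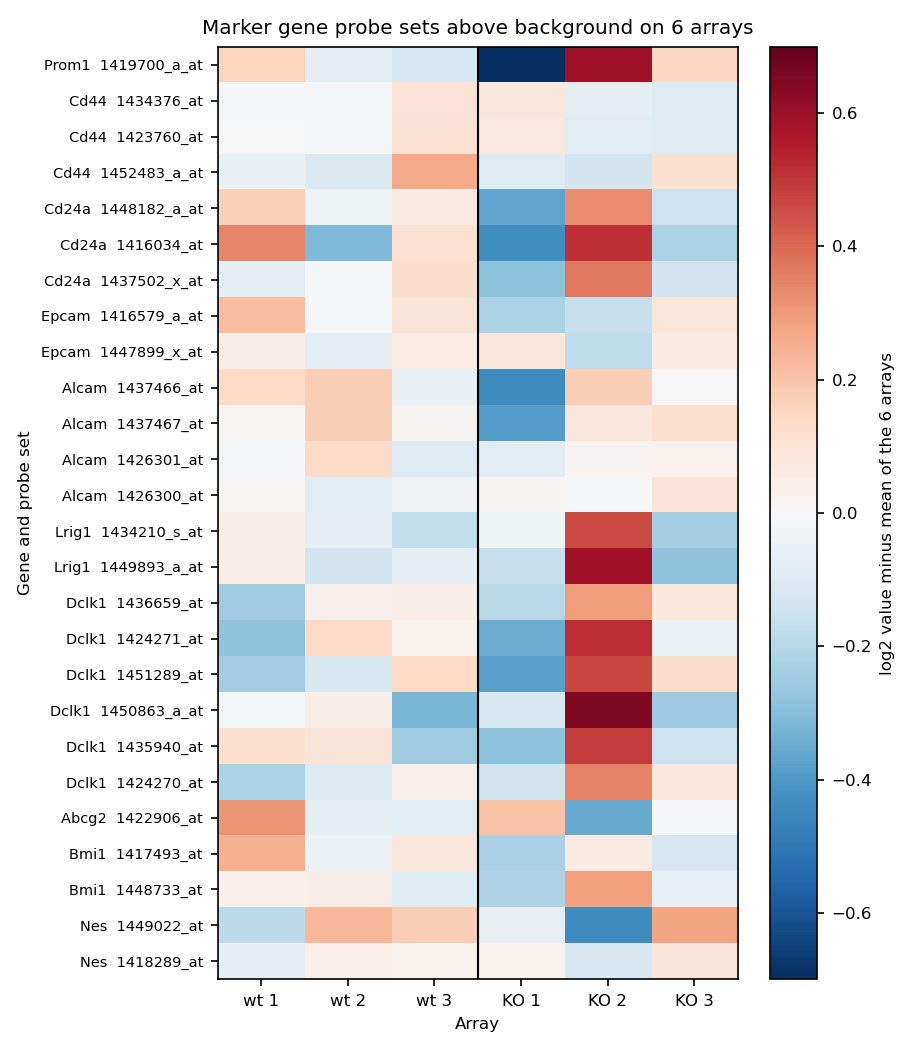
Log2 value minus the mean of the 6 arrays (colour) for the 26 marker gene probe sets above background on all arrays, with arrays on the horizontal axis and probe sets on the vertical axis. The column of KO replicate 2 is red for Prom1, all 3 probe sets of Cd24a, and the probe sets shown of Lrig1 and Dclk1, and blue for Abcg2 and for Nes 1449022_at.

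Prom1 was the only marker whose values spanned at least 1 on the log2 scale, which 7.5% of genes above background did. Of 11141 other genes above background, the 3 with the most similar pattern over the 6 arrays were Slc37a1, a sugar phosphate transporter, Crybg1, and Muc1, the transmembrane mucin of ductal epithelium. Their root mean square distances from Prom1 in centred log2 values were 0.07, 0.08 and 0.08. Muc1 read 4208.4, 3554.1 and 3394.1 in wt and 2211.8, 6415.2 and 4453.5 in KO. Slc37a1 read 253.6 in KO replicate 1 and 536.1 in KO replicate 2, with 348.4 to 405.9 in the wt arrays, and Crybg1 read 195.8 and 464.7 in these KO arrays and 285.7 to 362.7 in wt.

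Of the cell type lists, those of islet cells, fibroblasts and macrophages had their highest and lowest scores in KO replicates 1 and 2, while the other lists had an extreme in at least 1 other array. In bulk RNA fewer cells of a type and less RNA per cell cannot be told apart. The mean log2 score of 12 markers of ductal and tumour epithelium, relative to the 6 arrays, was -0.50 in KO replicate 1 and 0.13 and 0.35 in KO replicates 2 and 3, against -0.13, -0.02 and 0.17 in wt. Their summed intensity ranged from 46656 to 76303 in KO and from 56828 to 67690 in wt, and 4 of the 12 had higher and 8 lower means in KO. Krt8 and Krt18, keratins of simple epithelium, differed by -0.0013 ± 0.11 and -0.02 ± 0.17, and Krt19 and Krt7 by 0.14 ± 0.15 and 0.19 ± 0.17 (SE). Of the 12, 1 had an unadjusted p under 0.05 (limma, 3.46% of all genes) and 1 had groups without overlap (8.28% of all genes). These were Esrp1, at -0.48 ± 0.19, and Grhl2, at -0.17 ± 0.10 with KO below wt. Both were named after their values were seen.

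Stromal and macrophage markers were high in KO replicate 1 and low in KO replicate 2. The score of 9 macrophage markers was 0.47 in KO replicate 1 and -0.44 in KO replicate 2, with -0.08 to 0.13 in wt, and their summed intensity ranged from 30964 to 55913 in KO and from 37060 to 46561 in wt. Csf1r, the receptor for macrophage colony-stimulating factor, read 7342.6 in KO replicate 1 and 4118.3 in KO replicate 2. The score of 11 fibroblast and stellate cell markers was 0.34 and -0.27 in these arrays and that of 8 pericyte and smooth muscle markers 0.86 and -0.48, with a lower value of -0.55 in wt replicate 1. The summed intensity of the fibroblast markers was 43522 to 64230 in KO and 52179 to 53814 in wt, and that of the pericyte markers 10087 to 21857 and 8535 to 17610. All markers of these 3 lists were above background on all arrays.

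Islet and B cell markers were high in KO replicate 2. The score of 9 islet and neuroendocrine markers was 0.65 there and -0.50 in KO replicate 1, with 0.37, -0.24 and -0.09 in wt replicates 1 to 3. Their summed intensities were 6355 to 15409 in KO and 7767 to 10157 in wt. Of the 9, 5 read highest in KO replicate 2, while Ppy, a pancreatic hormone gene, read highest in wt replicate 1, at 1805.7. Ins2, an insulin gene, read 5915.6 in KO replicate 2 and 1688.3 to 2935.0 in the other arrays. The score of 8 B and plasma cell markers, a lineage in which Cd24a is also transcribed, was 0.73 in KO replicate 2, with summed intensities of 5924 to 13242 in KO and 7322 to 9528 in wt. Of these, 7 of 8 read highest in that array, while 1 of the 8 was at background on all arrays. The B cell surface gene Ms4a1 read 639.0 there and 86.2 to 353.1 in the other arrays.

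Acinar markers had a different order. The score of 11 markers was -1.37 and -0.77 in KO replicates 1 and 2, 0.25 in KO replicate 3 and 0.41 to 1.04 in wt, and 10 of the 11 had lower means in KO, with a median log2 difference of -1.49. Of the 11, 8 had an unadjusted p under 0.05 (3.46% of all genes), 3 had groups without overlap (8.28% of all genes) and 0 had an adjusted p under 0.05 (limma). Their summed intensity was 12070 to 35155 in KO and 38053 to 60872 in wt. Cpa1, a carboxypeptidase of acinar cells, read 883.3, 1080.4 and 3197.5 in KO and 3182.4 to 6008.0 in wt. Markers of endothelial cells, among which those of young vessels make nestin, scored 0.32, -0.13 and 0.11 in KO replicates 1 to 3 and -0.31 to 0.16 in wt. Their summed intensities were 7690 to 11341 in KO and 6909 to 9568 in wt. Means were higher in KO for 10 of these 11 markers, with a median log2 difference of 0.23. Of the 11, 1 had an unadjusted p under 0.05 (3.46% of all genes), 2 had groups without overlap (8.28% of all genes) and 0 had an adjusted p under 0.05 (limma). The KO mean was the higher for each of 9 markers of T and NK cells, with a median log2 difference of 0.39. Of the 9, 3 had an unadjusted p under 0.05, 3 had groups without overlap and 0 had an adjusted p under 0.05 (limma). Only 4 of the 9 were above background on all arrays, and 1 was at background on all. None of the 3 with an unadjusted p under 0.05 was above background on all arrays. The score of the 9 was 0.16, 0.36 and -0.02 in KO and -0.38, -0.04 and -0.07 in wt. Their summed intensity was 1880 to 2470 in KO and 1442 to 1862 in wt. The part of these cell types in the marker values was not tested.

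**Figure D4:**
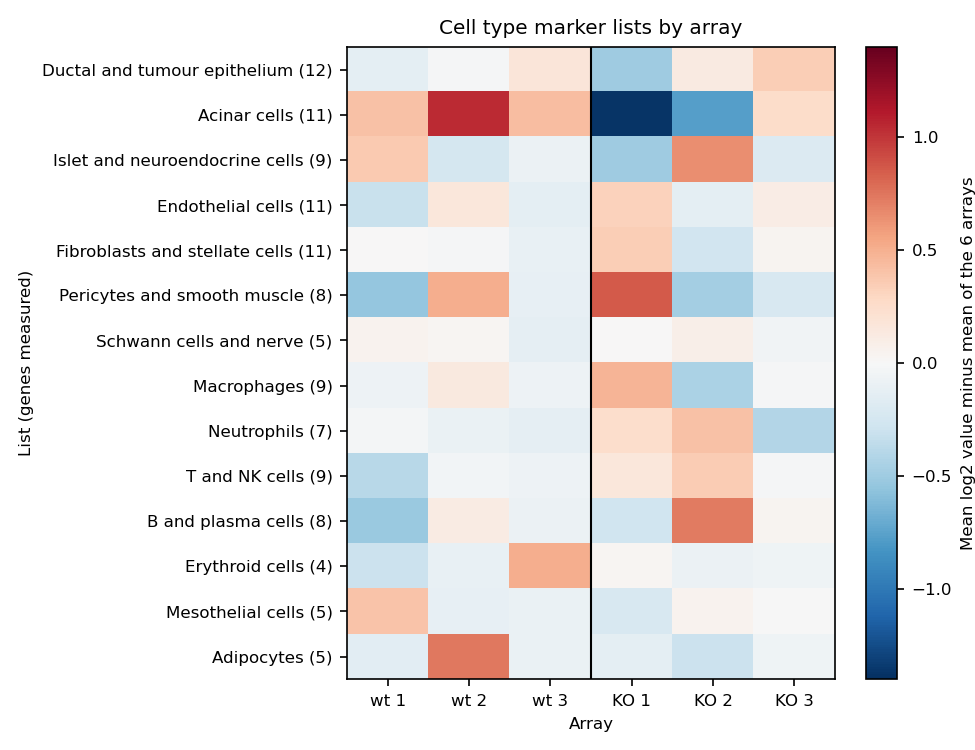
Mean log2 value of each cell type marker list minus its mean over the 6 arrays (colour), with arrays on the horizontal axis and lists, with the number of genes measured, on the vertical axis. KO replicate 1 is blue for epithelium, acinar and islet markers and red for pericytes, macrophages and fibroblasts, and KO replicate 2 is red for islet and B cell markers.

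Genes that act with the markers were read from 10 lists of partners, relatives and other progenitor genes, and in each list 0 members had an adjusted p under 0.05 in either direction (limma). Over all genes, 3.46% had an unadjusted p under 0.05 and the groups did not overlap for 8.28%, and list genes given below for such a p were named after their values were seen. For CD44 and hyaluronan, 6 of 11 genes had higher means in KO, with a median log2 difference of 0.02. Has2, a hyaluronan synthase, differed by 0.18 ± 0.31, the hyaluronidase gene Hyal2 by -0.02 ± 0.11, Ezr, whose product ezrin links CD44 to actin, by 0.07 ± 0.20 and Has1, near background, by 0.06 ± 0.08 (SE). Of this list 1 gene had an unadjusted p under 0.05, Hmmr, a hyaluronan receptor that also acts on the mitotic spindle, at 0.41 ± 0.13.

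Among 8 partners of EpCAM, 6 had lower means in KO, with a median of -0.09. Cldn7, a claudin that binds EpCAM, differed by -0.02 ± 0.19, and the tetraspanin genes Tspan8 and Cd9 by 0.34 ± 0.28 and -0.08 ± 0.16 (SE). Adam17, a sheddase, differed by 0.27 ± 0.12. The groups did not overlap for 3 of the 8, Adam17, St14 and Spint1, beside 8.28% of all genes, and each of the 3 had an unadjusted p under 0.05, beside 3.46%. St14 encodes matriptase, a membrane protease that cleaves EpCAM, and Spint1 its inhibitor HAI-1, and both were named after their values were seen. St14 read 1759.2, 1573.6 and 1411.1 in wt and 1150.5, 1135.1 and 1241.5 in KO, so that all KO arrays lay below all wt arrays. Its log2 difference was -0.42 ± 0.12 (SE; unadjusted p = 0.0079, adjusted p = 0.9997, limma), and that of Spint1 was -0.28 ± 0.12.

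All 8 measured relatives and receptor targets of LRIG1 had lower means in KO, with a median of -0.06 and overlap between the groups in each. Of the 8, 6 were above background on all arrays and 1 was at background on all. Lrig2 and Lrig3 differed by -0.12 ± 0.11 and -0.04 ± 0.20, and the receptor genes Egfr and Erbb2 by -0.0097 ± 0.15 and -0.08 ± 0.23 (SE). KO replicate 1 had the lowest score of the list, at -0.27, with -0.0015 to 0.12 in the other arrays.

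The list for Polycomb repressive complex 1 held its genes and Cdkn2a, a target of the complex and not a subunit. Means in KO were lower for 11 of these 15, Cdkn2a among them, with a median of -0.14. The groups did not overlap for 3 of the 15, beside 8.28% of all genes, with KO below wt for Cbx2 and Phc2 and above it for Cbx8. Ring1 and Rnf2, the ubiquitin ligases that pair with BMI1, differed by 0.09 ± 0.11 and -0.14 ± 0.11, and Pcgf2, the closest relative of Bmi1, by -0.10 ± 0.07 (SE). Cdkn2a, the locus that BMI1 represses, read 3427.8, 2676.4 and 2778.5 in wt and 1621.9, 2909.3 and 3139.0 in KO, a difference of -0.26 ± 0.25. The 1 gene with an unadjusted p under 0.05 was Phc2, at -0.28 ± 0.12.

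The list of drug efflux pumps also held Abcg1 and Abcg4, read as relatives of Abcg2. Means in KO were lower for 7 of its 9 genes, Abcg1 and Abcg4 among them, with a median of -0.08. The multidrug resistance genes Abcb1a and Abcb1b each differed by -0.20, with SE of 0.24 and 0.15, and Abcc1 and Abcc3 by -0.06 ± 0.16 and -0.24 ± 0.28 (SE). Abcg1, a cholesterol transporter of macrophages, was the 1 gene with an unadjusted p under 0.05, at -0.54 ± 0.23, and its groups overlapped.

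Of 16 doublecortin kinase and tuft cell genes, read beside Dclk1, 9 were at background on all arrays, 10 had higher means in KO and 6 lower, and the median log2 difference was 0.03. Pou2f3, the transcription factor that specifies tuft cells, read 252.2 to 284.1 in wt and 261.2 to 296.9 in KO, a difference of 0.07 ± 0.09 (SE). The taste channel gene Trpm5 differed by 0.14 ± 0.13, Dclk2 by -0.0021 ± 0.07 and Dcx, at background, by 0.05 ± 0.06. Hpgds, also at background, and Alox5 had an unadjusted p under 0.05, at 0.21 ± 0.06 and -0.33 ± 0.09, in opposite directions. The list scored 0.18 in KO replicate 2 and between -0.11 and 0.02 in the other arrays. This score rested on Avil and Rgs13, named after their values were seen. Avil, which encodes the actin-binding protein advillin, read 1752.4 in KO replicate 2 and 385.5 to 691.1 in the other arrays, and Rgs13, a regulator of G protein signalling, 590.0 there and 161.1 to 309.2 elsewhere. Their log2 values in KO replicate 2 were 1.53 and 1.26 above their means over the 6 arrays, while the other 14 genes lay between -0.21 and 0.32 of theirs.

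Of the intermediate filament genes, 4 of 9 had higher and 5 lower means in KO, and Vim, which co-assembles with nestin, differed by 0.13 ± 0.10 (SE). Des, the muscle filament gene, read 2004.0 in KO replicate 1 and 467.4 to 1273.6 elsewhere, and Synm, a partner of nestin and desmin, 471.1 there and 162.9 to 309.3 elsewhere. Gfap was at background. Adhesion genes listed with Alcam had a median of 0.06 over 7 genes. Its ligand gene Cd6 differed by 0.12 ± 0.09, Mcam by 0.06 ± 0.23, Bcam by -0.30 ± 0.22 and L1cam by 0.04 ± 0.06 (SE). The CD24 receptor genes Siglecg and Selp differed by 0.23 ± 0.13 and 0.22 ± 0.22.

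Among 20 other stem and progenitor genes, 11 had higher and 9 lower means in KO, with a median of 0.0046, no gene with an unadjusted p under 0.05 and overlap between the groups in all. Sox9, a factor of ductal and progenitor cells, read 1022.9, 1108.7 and 1127.4 in wt and 807.9, 1376.6 and 1154.8 in KO, with a log2 difference of 0.0022 ± 0.19 (SE). KO replicate 1 was lowest and KO replicate 2 highest for this gene, as for Prom1 and Cd24a. Aldh1a1, a retinal dehydrogenase used as a stem cell marker, read 2579.7, 778.2 and 580.9 in wt and 683.0, 385.6 and 905.5 in KO, a difference of -0.76 ± 0.56 with wt replicate 1 far above the rest. Lgr5, a Wnt target of intestinal stem cells, differed by -0.37 ± 0.26. Prom2, the relative of Prom1, was at background on all arrays.

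**Figure D5:**
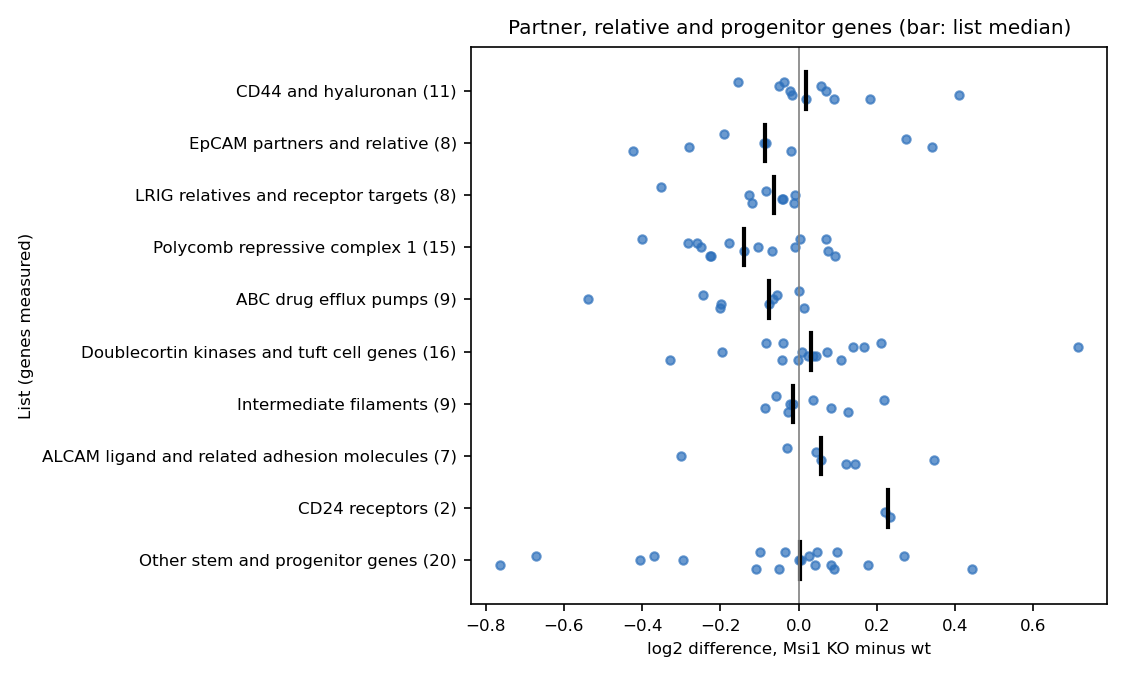
Log2 difference, Msi1 KO minus wt, of each measured gene (points) in 10 lists of marker partners, relatives and progenitor genes, with lists on the vertical axis and the list median as a black bar. Points lie on both sides of 0 in 8 of the lists, and on 1 side for the LRIG list and the CD24 receptors.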

How the data were processed

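Expression was measured in 6 arrays, 3 per genotype. The authors deposited linear intensity values in 1 table, made with GCRMA (background correction, quantile normalization and probe summary) per the submitters' processing notes. No version, setting or later rescaling is given in the sources used here. Any compression of low values would make dim genes look less changed. The labels gave groups and replicate numbers.

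The file held 45101 probe sets, and 64 controls were left out. The platform annotation gave 34945 of the 45037 tested 1 gene symbol, 932 several and 9160 none, and symbols were updated through Entrez identifiers (34741 matched). A linear model with genotype as its term was fitted to log2(intensity + 1) over all probe sets in R 4.3.3 by limma 3.58.1, using lmFit and then eBayes with trend, with Benjamini-Hochberg adjustment at 0.05, and tested on simulated data. Exact permutation tests used the 20 assignments of arrays (scipy 1.17.1). The number of arrays limits the precision.

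The marker genes and the 24 lists, with 219 of 240 genes measured, were chosen with earlier results of these data known. Text names all markers, the first 4 measured genes of the partner lists and some of those of the cell type lists. It also names up to 3 genes nearest to any marker spanning 1 log2 unit, and genes said to be named after their values were seen. Partner list genes with an unadjusted p under 0.05 are all named, while those of the cell type lists are not all named. Of the other cell type lists only those whose scores are given are described. Alternatives were filters, pseudocount, normalization, prior, array weights, replicate block, each array left out, threshold and probe set choice.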

Additional observations from a re-analysis of the deposited data

How the results depend on the processing

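The count of 0 marker genes past the threshold held under every alternative run: mean log2 filters at 7 and 8, a pseudocount of 16, quantile normalization, median centring, no variance trend, array weights, an adjusted p of 0.1, averaged probe sets, the replicate block and each array left out. Leaving out arrays moved the number of markers higher in KO between 2 and 5, the number whose groups did not overlap between 0 and 2 (background 14.9% to 25.2% of genes), the median difference between -0.12 and -0.05, and the number of probe sets called between 0 and 1, an Ighm probe set without KO replicate 1. The direction changed with arrays left out for Prom1 (-0.27 to 0.38), Cd24a (-0.32 to 0.0265), Alcam (-0.30 to 0.0033), Lrig1 (-0.0673 to 0.28), Dclk1 (-0.0008 to 0.24), Abcg2 (-0.24 to 0.0395) and Nes (-0.32 to 0.0376). It also changed at another probe set for Alcam (0.0652), Bmi1 (0.0077), Cd44 (0.0493) and Nes (0.0017 and 0.0279), and the cause was not tested. Array weights moved the difference by over 1.5 times for Prom1 (to 0.28), Cd24a (-0.0244), Alcam (-0.0542), Bmi1 (-0.1149), Epcam (-0.1133), Cd44 (-0.0954) and the median of the 10 (-0.0748). Averaged probe sets did so for Alcam (-0.0658), Bmi1 (-0.0916), Cd24a (-0.0843), Epcam (-0.1113), Lrig1 (0.0815), Nes (-0.0383) and the median (-0.0521), and quantile normalization for Prom1 (0.0005). Of the 33 probe sets of the markers, 26 were above background on all arrays and 6 on none, which gives the latter little weight.

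With the replicate number as a block, 0 markers and 0 probe sets passed and the median stayed at -0.12. Same-numbered arrays had correlations of 0.17, -0.091 and 0.282 between their deviations from the group means, so the numbers were not taken as pairs, and wt replicate 2 correlated best with another number.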
